A study of Mus musculus with 6 samples.

Results

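Transcripts of 44 genes that encode parts of the sarcomere were followed in C2C12 myotubes exposed to the cytokine TWEAK. The genes are those of a named list that leaves out the myosin heavy chains and the troponins. It takes in myosin light chains, the filament actins, tropomyosins, nebulin and filament-end proteins, titin and M-band proteins, Z-disc proteins, assembly factors and chaperones, and the muscle creatine kinase and myoglobin genes. All 44 were found by symbol among the 49592 genes of the table. The rule uses no measured value, but the list was chosen with earlier results of these data known. C2C12 cells are mouse myoblasts that fuse into myotubes once serum is lowered. The cells were differentiated for 3 days in differentiation medium and then received 10 ng/ml TWEAK for 12 h or were left untreated for the same time, with 3 libraries a group numbered by trial. Both groups carry the same cell line, a single established line without a genetic change named in the labels, and the labels name TWEAK as the only agent that differs. Whether each trial was its own culture is not said in the labels, and the p-values therefore reflect only how these libraries vary, which may be technical. The study asked how TWEAK acts on gene expression while myoblasts fuse.

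The sarcomere is the repeating unit of the myofibril. Thin filaments of actin, tropomyosin and nebulin are anchored in the Z-disc, thick filaments of myosin are cross-linked in the M-band, and titin connects the Z-disc with the M-band. Chaperones and LIM proteins help fold myosin and keep the lattice in order, and myoblasts switch these genes on together as they differentiate and fuse.

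Each library held 29980372 to 40919753 reads recovered from the deposited values, and mitochondrial genes took 2.12% to 2.88% of them. The myotube markers Myog, Mymk, Myh3, Acta1, Ckm and Des were all expressed. Their summed level was 6580 to 6970 FPKM (fragments counted per length of transcript and per depth of library) in the TWEAK libraries. In the untreated libraries it was 6896 to 7982 FPKM, and Acta1 was the largest part of the sum. Of these 6, Myh3 alone was called, and it was lower (6.1% of all tested genes). For Myog, Mymk and Des every TWEAK library lay above every untreated one, without a call (20% of all tested genes lay so). Acta1 and Myh3 lay the other way without overlap (15.9% of all tested genes), and Ckm overlapped. Mymk was at 646 ± 29.3 FPKM with TWEAK and 578 ± 41.4 FPKM untreated (limma adjusted p = 0.262). Across the 6 markers, log2 fold changes had a median of -0.05. Acta1, Ckm and Des are also members of the list followed here, and Myh3 is counted below among the myosin heavy chains. Neither the sum nor the median is therefore a separate check of the results below. In the list of undifferentiated or reserve myoblast markers, Id1, Id3, Heyl and Myf5 were called lower and Cd34 higher, of 6 tested. Of all tested genes, 6.1% were called lower and 8.98% higher. With trial as a term Pax7 was also called lower (limma adjusted p = 0.004), beside 12.5% of all tested genes. The summed level of these myoblast markers was 56.6 to 67.0 FPKM with TWEAK and 67.5 to 79.1 untreated. The part of these cells in the differences below was not tested, and in bulk RNA fewer cells of a type and less RNA per cell cannot be told apart. The endothelial markers summed to at most 0.104 FPKM in any library and none of the 4 reached the expression minimum. Of 5 macrophage and leukocyte markers, Adgre1 was listed at 0 in all 6 libraries and Cd68 alone was tested and not called. The fibroblast (4 tested) and smooth muscle (3 tested) lists held no called gene. With trial as a term in the fit, Col3a1 was called lower (limma adjusted p = 0.0357), beside 12.5% of all tested genes. Acta2 was at 1341 ± 77.1 FPKM with TWEAK and 1352 ± 126 FPKM untreated. Col3a1 was at 511 ± 131 FPKM with TWEAK and 616 ± 79.1 FPKM untreated. Among cardiomyocyte markers, Myh6 and Nppb were lower, of 3 tested (6.1% of all tested genes). Nppa was listed at 0 in the TWEAK libraries and Myl7 at 0 in the untreated ones. The cardiomyocyte list summed to 8.82 to 11.8 FPKM with TWEAK and 16.9 to 20.6 untreated. The adipocyte list had 1 tested gene, Pparg, which was lower; Plin1 was listed at 0 in all 6 libraries and the list summed to 1.62 to 2.16 FPKM with TWEAK and 2.58 to 3.24 untreated. The part of either in the differences below was not tested.

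The promoters of 6 of the genes are given here. Of these, 5 are all the tested members with a match to the CArG box, the motif of serum response factor: Actc1, Fhl1, Ldb3 and Myom1, which were called lower, and Acta1, which was not. The other is Hspb7, the member with the greatest fall, which has no such match. The set was chosen after the values were seen, and most members have no CArG box: 4 of the 15 called genes with a promoter and 1 of the 21 tested and not called have one. RefSeq promoters on build GRCm38.p6, which cover 250 bases before to 50 bases after the annotated start, were matched by symbol for 37 of the 44 genes. Each is printed 5′ to 3′ on the gene's strand. Capitals mark a match on either strand to the CArG box, the MEF2 box, CANNTG (the general E-box), TATAAA or CATTCC (the motif of TEAD factors).
Actc1 (chr2:114052826-114053125, minus strand): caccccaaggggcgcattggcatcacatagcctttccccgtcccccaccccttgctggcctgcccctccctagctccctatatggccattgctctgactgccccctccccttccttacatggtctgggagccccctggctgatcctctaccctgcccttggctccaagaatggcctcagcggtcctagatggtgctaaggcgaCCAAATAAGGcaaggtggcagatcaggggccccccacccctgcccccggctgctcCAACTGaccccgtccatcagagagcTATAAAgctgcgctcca
Acta1 (chr8:123894726-123895025, minus strand): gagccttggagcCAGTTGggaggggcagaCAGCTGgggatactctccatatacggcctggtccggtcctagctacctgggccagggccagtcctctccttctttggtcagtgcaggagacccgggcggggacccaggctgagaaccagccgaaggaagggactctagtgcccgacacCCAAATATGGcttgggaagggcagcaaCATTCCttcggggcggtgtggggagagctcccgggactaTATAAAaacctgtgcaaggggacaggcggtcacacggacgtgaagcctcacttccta
Fhl1 (chrX:56779433-56779732, plus strand): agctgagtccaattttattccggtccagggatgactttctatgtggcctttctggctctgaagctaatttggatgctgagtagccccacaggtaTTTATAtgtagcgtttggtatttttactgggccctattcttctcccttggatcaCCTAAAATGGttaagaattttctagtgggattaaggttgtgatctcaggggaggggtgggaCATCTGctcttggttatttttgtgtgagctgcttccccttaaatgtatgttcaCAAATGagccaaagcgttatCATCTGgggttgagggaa
Hspb7 (chr4:141420529-141420828, plus strand): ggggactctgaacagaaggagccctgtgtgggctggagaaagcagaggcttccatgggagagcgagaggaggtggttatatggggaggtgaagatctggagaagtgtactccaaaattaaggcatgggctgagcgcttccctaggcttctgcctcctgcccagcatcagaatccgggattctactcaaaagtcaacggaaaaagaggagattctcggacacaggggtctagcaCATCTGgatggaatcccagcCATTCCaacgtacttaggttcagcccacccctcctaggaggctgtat
Ldb3 (chr14:34588632-34588931, minus strand): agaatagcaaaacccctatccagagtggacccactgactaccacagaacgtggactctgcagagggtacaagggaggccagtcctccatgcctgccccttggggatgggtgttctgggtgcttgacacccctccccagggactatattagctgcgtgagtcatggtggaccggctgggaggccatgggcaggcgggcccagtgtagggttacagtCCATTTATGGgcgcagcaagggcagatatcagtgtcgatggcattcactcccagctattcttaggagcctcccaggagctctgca
Myom1 (chr17:71019307-71019606, plus strand): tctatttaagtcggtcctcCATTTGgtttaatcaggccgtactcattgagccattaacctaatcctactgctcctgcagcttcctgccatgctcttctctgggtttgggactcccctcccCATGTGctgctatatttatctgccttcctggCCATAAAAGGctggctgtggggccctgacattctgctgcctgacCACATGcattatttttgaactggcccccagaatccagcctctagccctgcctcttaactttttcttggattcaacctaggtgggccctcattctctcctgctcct
Counted at its first base from the annotated start, the CArG box lies at -47 in Actc1, -73 in Acta1 and -99 in Myom1. It lies at -102 in this Fhl1 promoter and -35 in this Ldb3 promoter, each 1 of 2 listed. In the same count TATAAA begins at 34 in Actc1, after that start, and at -7 in Acta1. Where transcription starts in these cells was not tested. The Hspb7 window holds no CArG box and has one CANNTG match and one CATTCC match.

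After 12 h of TWEAK, 17 of the 42 tested genes were lower and 0 were higher (limma on log2(FPKM + 1), adjusted p below 0.05); at an unadjusted p below 0.05, 24 were lower and 0 higher. Of all 12770 tested genes, 6.1% were lower and 8.98% higher at the adjusted threshold, and 13.3% lower and 17% higher at the unadjusted one. The median log2 fold change, TWEAK minus untreated, was -0.28 for these 42 genes and 0.01 for all tested genes. Of the 42, 38 lay below 0, as did 6096 of all 12770 tested genes. In 31 of the 42, the TWEAK library was below the untreated one in each of the 3 trials, as in 27.5% of all tested genes. All 3 TWEAK libraries lay below all 3 untreated ones for 22 of the 42 (15.9% of all tested genes) and above them for 1, Des (20% of all tested genes). Myl3 and Myoz3 stayed below the minimum mean of 0.5 FPKM and were not tested. The members' share of all FPKM was 4.70% to 4.98% in the TWEAK libraries and 5.42% to 5.80% in the untreated libraries, and the 2 ranges did not overlap.

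**Figure D1:**
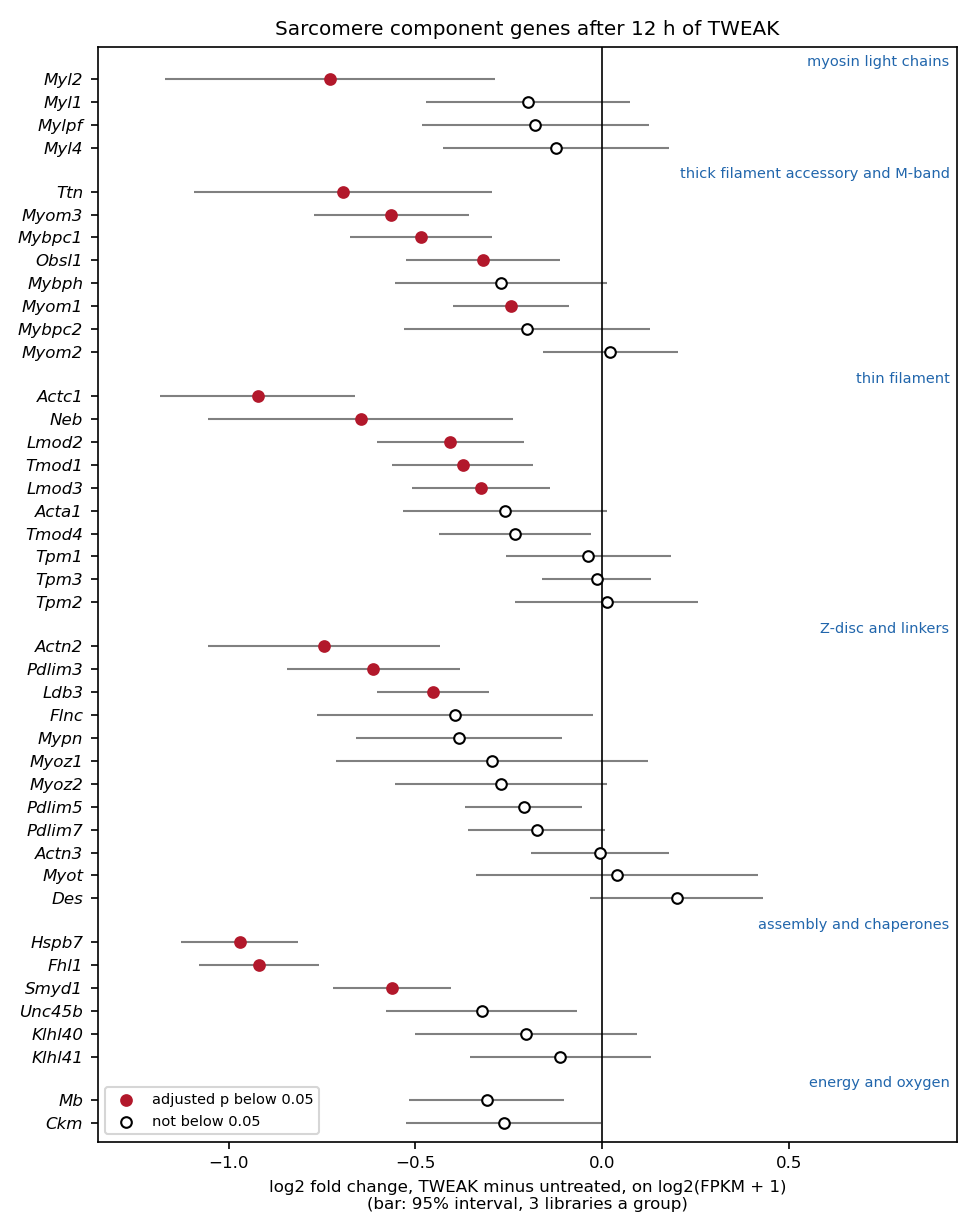
Log2 fold change of each tested gene on the log2(FPKM + 1) scale, TWEAK minus untreated, with its 95% interval from 3 libraries a group; genes are grouped by role and filled circles have an adjusted p below 0.05. The 17 filled circles all lie to the left of 0, with Hspb7 at -0.97 the farthest.

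On the recovered reads, limma-voom called 19 of the 42 lower (7.08% of all tested genes) and 0 higher. Taking trial as a term in the fit, which compares libraries within trials, 25 of the 42 genes were lower (12.5% of all tested genes) and 0 higher. The 8 genes gained were Flnc, Klhl40, Mb, Myoz1, Myoz2, Mypn, Pdlim5 and Unc45b. In the authors' deposited table, which held more libraries than these, 20 of the 44 had an adjusted p below 0.05 with a lower value under TWEAK, 0 had a higher one, and 1 had no adjusted p; 9.38% of all genes with an adjusted p there were lower. Relative to the fit used here, the authors' deposited table adds Acta1 (adjusted p = 0.0113), Mb (0.00104), Mypn (0.0147) and Pdlim5 (0.00864) and leaves out Myl2 (0.1). Calls of Hspb7, Fhl1, Actc1, Smyd1, Ldb3, Myom3, Pdlim3, Mybpc1 and Actn2 were kept when any single library was left out, and the other 8 calls were lost without at least 1 library, as given with each gene. The number of members called lower was 9 without TWEAK replicate 2, 9 without untreated replicate 1, 11 without untreated replicate 2, 13 without untreated replicate 3, 16 without TWEAK replicate 1 and 20 without TWEAK replicate 3. The share of all tested genes called lower in those fits was 2.68%, 3.59%, 3.12%, 4.37%, 6.55% and 5.56%, in the same order, against 6.1% with all 6 libraries. With no expression filter, where 1.15% of all genes were called lower, 8 of the 17 calls were kept, and Actn2 (limma adjusted p = 0.0637) was lost beside those other 8.

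**Figure D2:**
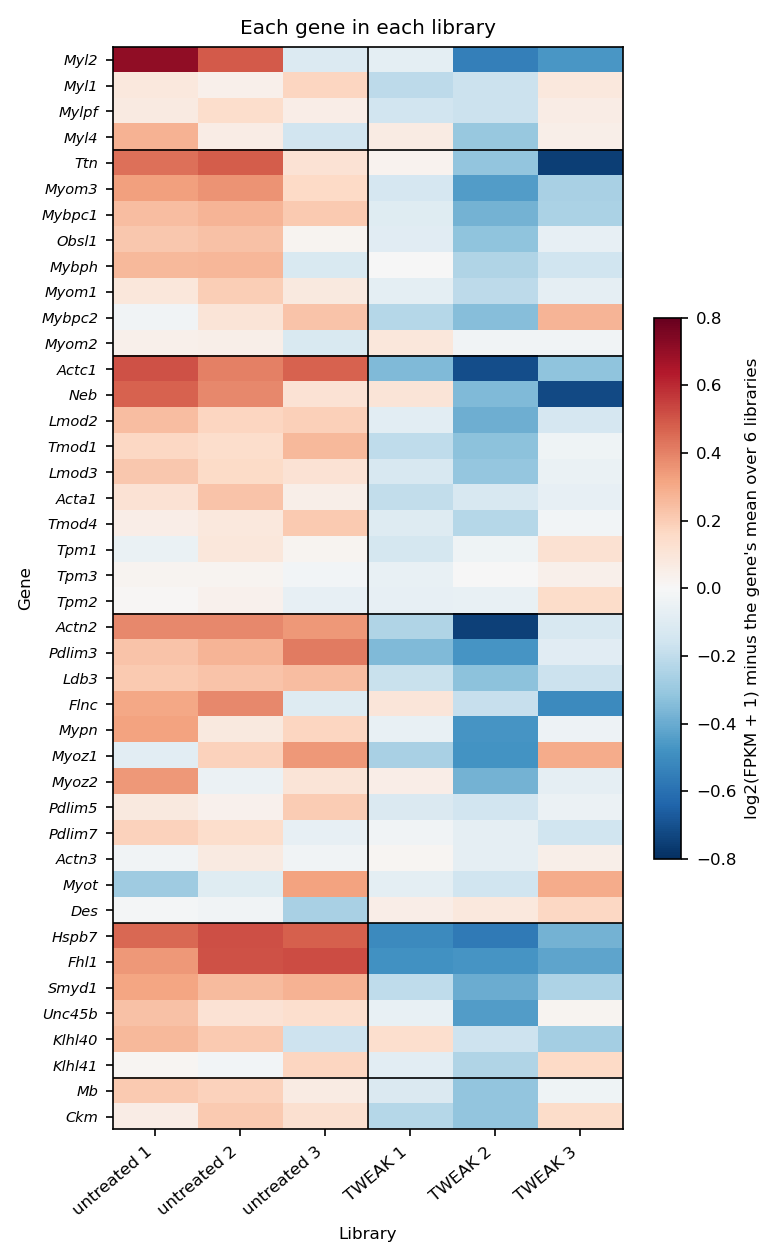
Level of each tested gene in each of the 6 libraries, as log2(FPKM + 1) minus the gene's mean over the 6; horizontal lines separate the roles in the same order as in the plot of fold changes. Actc1, Hspb7 and Fhl1 are high in every untreated library and low in every TWEAK library, and TWEAK replicate 3 is the lowest of the 6 for Ttn, Neb and Flnc.

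In the thin filament, 5 of 10 genes fell (6.1% of all tested genes): the cardiac actin Actc1, the filament ruler nebulin and 3 filament-end genes. The actin that makes up most of the skeletal thin filament, Acta1, and the 3 tropomyosins did not pass. Actc1, which embryonic skeletal muscle also uses (chr2:113877763-113884029 on GRCm39), was at 586, 459 and 601 FPKM in TWEAK replicates 1, 2 and 3 and at 1068, 992 and 1040.1 FPKM in untreated replicates 1, 2 and 3. No TWEAK library came near an untreated one. Its mean fell 1.88-fold, with a log2 fold change of -0.92 ± 0.12 (SE) and an adjusted p of 0.00131 by limma. Acta1, the skeletal α-actin (chr8:124618508-124621490), was at 3188, 3335 and 3488 FPKM with TWEAK and at 3950.2, 4279.8 and 3774 FPKM untreated, in replicate order. The 2 groups did not overlap, and the limma adjusted p was 0.182 (log2 fold change -0.26, 95% interval -0.53 to 0.012). The 2 actin genes share no 50-base word in the GENCODE M21 transcripts, while 2.02% of Acta1's words occur in the gene model Gm47692.

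Neb, the giant protein that runs along the thin filament (chr2:52026659-52268486), was at 50.1, 36.2 and 27.9 FPKM with TWEAK and 64.8, 61.0 and 50.5 FPKM untreated. The highest TWEAK value, in replicate 1, was just below the lowest untreated value. The mean was 1.54-fold lower (limma adjusted p = 0.0426), and the call was lost without TWEAK replicate 2 (adjusted p = 0.118), TWEAK replicate 3 (0.0847), untreated replicate 1 (0.124), untreated replicate 2 (0.133) or untreated replicate 3 (0.0535), and with each library scaled to the same total FPKM (0.0534). After each library was corrected for gene length, by a curve chosen after seeing the data, the log2 fold change was -0.41 in place of -0.65. Tropomodulins cap the pointed end of the actin filament, and leiomodins promote its growth. Tmod1 was at 45.7 ± 4.83 FPKM with TWEAK and 59.4 ± 2.72 FPKM untreated (1.30-fold lower, adjusted p = 0.0179 by limma). That call was lost without TWEAK replicate 2 (adjusted p = 0.0806), untreated replicate 1 (0.0514) or untreated replicate 3 (0.061), and Tmod1 overlaps Tstd2, which was expressed at a lower level. Lmod2 was at 85.8 ± 9.53 FPKM with TWEAK and 114 ± 3.23 FPKM untreated (1.32-fold lower, limma adjusted p = 0.0147), and lost its call without TWEAK replicate 2 (adjusted p = 0.0542) or untreated replicate 1 (0.0581). Lmod3, at 130.5 ± 11.8 FPKM with TWEAK and 163 ± 5.72 FPKM untreated, was 1.25-fold lower with a limma adjusted p of 0.0282. Without TWEAK replicate 2, untreated replicate 1, untreated replicate 2 or untreated replicate 3 its adjusted p was 0.123, 0.109, 0.0837 and 0.055. Tmod4 was little expressed, at 1.36 ± 0.167 FPKM with TWEAK and 1.78 ± 0.160 FPKM untreated; its libraries did not overlap, yet the limma adjusted p was 0.119.

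Tropomyosins coil along actin and set where myosin may bind. Tpm2 was at 1766, 1779 and 2047 FPKM with TWEAK and 1867, 1893 and 1773 FPKM untreated, and the groups overlapped. The 95% intervals of the log2 fold change were -0.26 to 0.18 for Tpm1, -0.23 to 0.26 for Tpm2 and -0.16 to 0.13 for Tpm3, whose limma adjusted p-values were 0.836, 0.952 and 0.906. Of Tpm3's 50-base words, 23.2% also occur in Tpm3-rs7, so its reads may be split between copies.

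**Figure D3:**
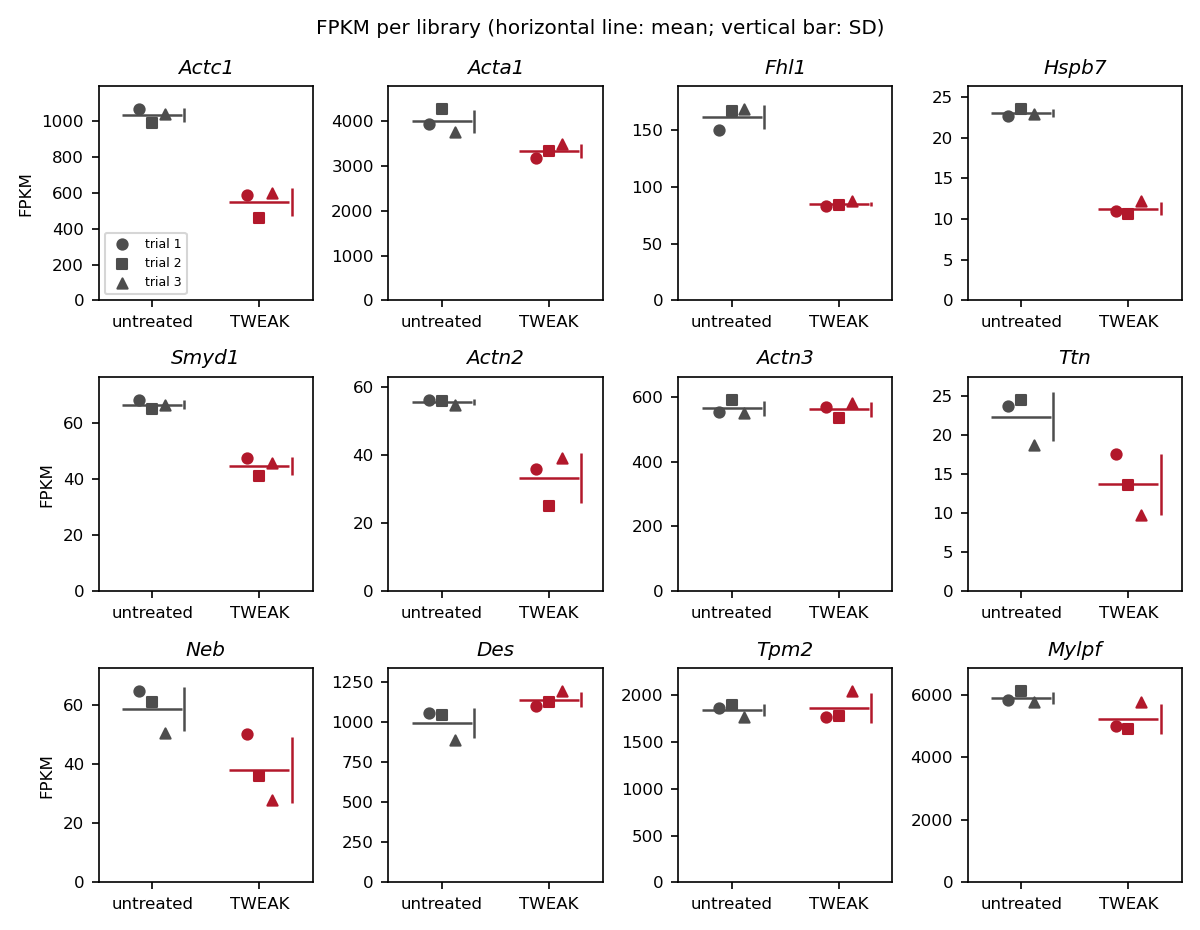
FPKM of 12 of the genes in each library, with a circle, square and triangle for trials 1, 2 and 3, a horizontal line at the group mean and a vertical bar for its SD; each axis starts at 0. Actc1, Fhl1, Hspb7 and Smyd1 separate the groups by more than either group's spread, and Actn3 and Tpm2 do not separate them.

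Among the myosin light chains, which stabilise the lever arm of the myosin head, 1 of 4 tested genes was called lower (6.1% of all tested genes). The fast-fibre regulatory chain Mylpf was the most abundant gene of the whole table in the untreated group, at 5828, 6119 and 5753 FPKM, and was at 4995, 4911 and 5771 FPKM with TWEAK. TWEAK replicate 3 lay inside the untreated range, and the limma adjusted p was 0.414 (log2 fold change -0.18, 95% interval -0.48 to 0.13). Myl1, the fast essential chain, was at 1964, 2017 and 2415 FPKM with TWEAK and 2413, 2344 and 2559 FPKM untreated (limma adjusted p = 0.304); 11.7% of its 50-base words also occur in the pseudogene Mylf-ps. Myl4, the embryonic and atrial chain, was at 447 ± 61.4 FPKM with TWEAK and 487 ± 72.8 FPKM untreated (limma adjusted p = 0.583). Myl2, the slow and ventricular regulatory chain, stood at far lower levels, with 14.6, 10.3 and 10.9 FPKM in the TWEAK libraries and 26.1, 22.2 and 14.3 FPKM in the untreated ones. TWEAK replicate 1 was just above untreated replicate 3, so the groups overlapped, while the TWEAK library was the lower of the 2 in each trial. The mean was 1.74-fold lower (limma adjusted p = 0.0369), and the call was lost without TWEAK replicate 2 (adjusted p = 0.124), TWEAK replicate 3 (0.0947), untreated replicate 1 (0.107) or untreated replicate 2 (0.129). Myl3, the slow essential chain, had 0.409, 0.179 and 0.269 FPKM with TWEAK and 0.349, 0.568 and 0.351 FPKM untreated, too low to test, and these values overlapped.

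Of the 8 genes of the thick filament's accessory proteins and the M-band, 5 fell (6.1% of all tested genes): titin, the slow myosin-binding protein C, 2 myomesins and obscurin-like 1. Ttn (chr2:76534324-76812891 on GRCm39) was at 17.6, 13.6 and 9.84 FPKM with TWEAK and at 23.8, 24.5 and 18.8 FPKM untreated. TWEAK replicate 3 was the lowest library and the groups did not overlap. The mean was 1.63-fold lower (log2 fold change -0.69 ± 0.18 (SE), limma adjusted p = 0.0301), and the call was lost without TWEAK replicate 2 (adjusted p = 0.0806), untreated replicate 1 (0.0865) or untreated replicate 2 (0.115). After the correction for gene length, a curve on which few genes as long as Ttn bear, its log2 fold change was -0.24 (limma adjusted p = 0.0337). Mybpc1, the slow form of a protein that binds the myosin tail, was at 6.30 ± 0.714 FPKM with TWEAK and 9.19 ± 0.214 FPKM untreated. It was 1.46-fold lower with a limma adjusted p of 0.00619. Its fast counterpart Mybpc2, at 11.5 ± 2.96 FPKM with TWEAK and 13.2 ± 1.27 FPKM untreated, had a limma adjusted p of 0.394. Without TWEAK replicate 3 it was 0.0287. The other 5 fits without 1 library did not call Mybpc2 (limma adjusted p up to 0.793). Mybph, the abundant myosin-binding protein H, was at 799.8 ± 68.4 FPKM with TWEAK and 969.6 ± 141 FPKM untreated (limma adjusted p = 0.185), with overlapping libraries.

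Myomesins cross-link neighbouring thick filaments. Myom3 was at 43.8, 35.1 and 40.05 FPKM with TWEAK and 60.7, 62.1 and 54.1 FPKM untreated. Every TWEAK library was below every untreated one, and the mean was 1.49-fold lower (limma adjusted p = 0.00482). Myom1 was at 39.9, 36.3 and 40.05 FPKM against 45.1, 48.5 and 44.6 FPKM untreated, 1.19-fold lower with a limma adjusted p of 0.0443. Its call was lost without TWEAK replicate 1 (adjusted p = 0.0565), TWEAK replicate 2 (0.182), untreated replicate 1 (0.109), untreated replicate 2 (0.138) or untreated replicate 3 (0.0712) and with the correction for gene length (0.106), and Myom1 overlaps the abundant Myl12a by 246 bases. Myom2, the most abundant of the 3, was at 299, 276 and 275 FPKM with TWEAK and 289.8, 290.2 and 259 FPKM untreated; the groups overlapped and the 95% interval of the log2 fold change was -0.16 to 0.20. Obsl1, a linker between M-band proteins, was at 79.6 ± 7.77 FPKM with TWEAK and 99.3 ± 7.93 FPKM untreated (limma adjusted p = 0.0468). That call was lost without TWEAK replicate 1 (adjusted p = 0.0504), TWEAK replicate 2 (0.173), untreated replicate 1 (0.151) or untreated replicate 2 (0.151), and with the correction for gene length (0.0984). Obsl1 lies 117246 bases from Des on chromosome 1, and the 2 genes had log2 fold changes of -0.32 and 0.20.

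At the Z-disc, 3 of 12 tested genes fell (6.1% of all tested genes): the α-actinin Actn2 and the PDZ-LIM genes Pdlim3 and Ldb3. With trial as a term in the fit the count was 8 (12.5% of all tested genes). The α-actinins cross-link the barbed ends of actin filaments. Actn2 was at 35.9, 25.0 and 39.0 FPKM with TWEAK and at 56.1, 55.9 and 54.6 FPKM untreated. The untreated values were nearly equal and TWEAK replicate 2 was the lowest. Its mean was 1.67-fold lower, with a log2 fold change of -0.74 ± 0.14 (SE) (limma adjusted p = 0.00813). Actn3, the fast-fibre α-actinin and the more abundant of the 2, was at 569, 535 and 580.0 FPKM with TWEAK and 551, 589.8 and 550.5 FPKM untreated. Those groups overlapped, and the 95% interval of the log2 fold change was -0.19 to 0.18 (limma adjusted p = 0.967).

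PDZ-LIM proteins dock signalling enzymes and α-actinin at the Z-disc. Ldb3 was at 43.3, 38.9 and 43.4 FPKM with TWEAK and 56.8, 57.6 and 58.5 FPKM untreated, without overlap, and 1.38-fold lower (limma adjusted p = 0.00304). Pdlim3 was at 102 ± 14.2 FPKM with TWEAK and 156 ± 10.8 FPKM untreated, 1.53-fold lower with a limma adjusted p of 0.00536. Pdlim5, at 41.0 ± 1.59 FPKM with TWEAK and 47.6 ± 3.03 FPKM untreated, had a limma adjusted p of 0.0743, and of 0.0207 with trial as a term. Pdlim7, at 28.6 ± 1.38 FPKM with TWEAK and 32.5 ± 3.06 FPKM untreated, did not pass (limma adjusted p = 0.181).

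Of the other Z-disc genes, Mypn (myopalladin) was at 5.72 ± 1.08 FPKM with TWEAK and 7.70 ± 0.742 FPKM untreated, with no overlap between groups and a limma adjusted p of 0.0668, or 0.00235 with trial as a term. Flnc, the muscle filamin, was at 133, 109 and 87.0 FPKM with TWEAK and 154, 163 and 116 FPKM untreated, with overlap between untreated replicate 3 and TWEAK replicate 1. Its limma adjusted p was 0.141, 0.00187 with trial as a term and 0.0423 without TWEAK replicate 1. Flnc was not called in the other 5 fits without 1 library (limma adjusted p up to 0.357). The myozenins bind calcineurin and α-actinin. Myoz1 was at 3.77 ± 1.37 FPKM with TWEAK and 4.74 ± 0.847 FPKM untreated (limma adjusted p = 0.321, 0.0472 with trial as a term and 0.0392 without TWEAK replicate 3). In the other 5 fits without 1 library Myoz1 was not called (limma adjusted p up to 0.703). Myoz2, at 34.6 ± 5.29 FPKM with TWEAK and 41.9 ± 5.93 FPKM untreated, had a limma adjusted p of 0.185 and of 0.00609 with trial as a term. Myoz3 gave 4 reads over the TWEAK libraries and 6 over the untreated libraries, and was not tested. Myot (myotilin) was at 1.25 ± 0.391 FPKM with TWEAK and 1.21 ± 0.490 FPKM untreated, with a wide 95% interval of the log2 fold change, -0.34 to 0.42. Des, the intermediate filament protein that ties Z-discs together, was at 1103, 1126 and 1195 FPKM with TWEAK and 1054, 1045 and 889 FPKM untreated. All TWEAK libraries were above all untreated ones, but the limma adjusted p was 0.229 and the 95% interval of the log2 fold change was -0.033 to 0.43.

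Of the 6 assembly factors and chaperones, 3 fell (6.1% of all tested genes), Hspb7, Fhl1 and Smyd1, and the first 2 of these had the smallest adjusted p-values of all the members. With trial as a term 5 of the 6 were called lower (12.5% of all tested genes). Hspb7, a small heat shock protein of striated muscle (chr4:141148090-141152622 on GRCm39), was at 11.1, 10.6 and 12.2 FPKM with TWEAK and at 22.6, 23.5 and 22.9 FPKM untreated. Each group was tight and the groups lay far apart. Its mean fell 2.04-fold, with a log2 fold change of -0.97 ± 0.07 (SE) and a limma adjusted p of 6.1e-05. Fhl1, a LIM-only protein of the sarcomere (chrX:55777147-55838706), was at 83.4, 84.2 and 87.3 FPKM with TWEAK and at 149.7, 167 and 169 FPKM untreated. Again no libraries overlapped, and the mean fell 1.90-fold (log2 fold change -0.92 ± 0.071 (SE), limma adjusted p = 9.2e-05). Smyd1, a muscle methyltransferase needed for myofibril assembly, was at 47.3, 41.1 and 45.7 FPKM with TWEAK and 68.0, 65.0 and 66.2 FPKM untreated. It was 1.49-fold lower without overlap (limma adjusted p = 0.0013), and it overlaps Krcc1, which was at 32.4 FPKM with TWEAK and 33.6 FPKM untreated.

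Unc45b, the myosin-folding chaperone that works with Smyd1, was at 45.0, 34.3 and 47.9 FPKM with TWEAK and 55.4, 51.0 and 51.9 FPKM untreated. The groups did not overlap, and the limma adjusted p was 0.0899, 0.00837 with trial as a term and 0.0413 without TWEAK replicate 3. The other 5 fits without 1 library did not call Unc45b (limma adjusted p up to 0.232). Klhl40 and Klhl41 are kelch proteins that stabilise nebulin and the leiomodins. Klhl40 was at 42.0 ± 6.46 FPKM with TWEAK and 48.6 ± 7.55 FPKM untreated (limma adjusted p = 0.336, 0.0429 with trial as a term). Klhl41, at 195 ± 27.6 FPKM with TWEAK and 209 ± 15.4 FPKM untreated, did not pass (limma adjusted p = 0.527), and 4.52% of its 50-base words occur in other genes. Of the 2 metabolic genes, Mb (myoglobin) was at 269, 234 and 285 FPKM with TWEAK and 337, 332 and 305 FPKM untreated. Its groups did not overlap and its limma adjusted p was 0.052, 0.018 with trial as a term and 0.0263 without TWEAK replicate 3. Ckm, the muscle creatine kinase, was at 186 ± 32.9 FPKM with TWEAK and 221 ± 11.4 FPKM untreated (limma adjusted p = 0.162, or 0.0104 without TWEAK replicate 3), and its libraries overlapped. Neither Mb nor Ckm was called in the other 5 fits without 1 library (limma adjusted p up to 0.202 and 0.436).

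The ratio of 2 genes of one family within a library is free of the library's scaling. Because FPKM is per length, their levels can be set side by side. The ratio of Actc1 to Acta1 was 0.184, 0.138 and 0.172 in the TWEAK libraries and 0.270, 0.232 and 0.276 in the untreated ones, so cardiac actin transcripts were a smaller part of the 2 in every TWEAK library. Actn3 to Actn2 was 15.8, 21.4 and 14.9 with TWEAK and 9.83, 10.5 and 10.1 untreated, a shift toward Actn3 in every TWEAK library. Myom1 to Myom3 was 0.911, 1.04 and 1.00 with TWEAK and 0.742, 0.781 and 0.824 untreated, again without overlap. The log2 differences of these ratios, TWEAK minus untreated, were -0.66, 0.76 and 0.33. The other 5 ratios, Myl4 to Myl1, Tmod4 to Tmod1, Lmod2 to Lmod3, Mybpc1 to Mybpc2 and Tpm2 to Tpm1, overlapped between groups. With 3 libraries against 3, the two-sided exact permutation test cannot give a p below 0.1, which is the value of the 3 ratios without overlap. Adjusted over the 8 ratios it was 0.267, so none passed, and with trial as a block the exact sign-flip test cannot go below 0.25.

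**Figure D4:**
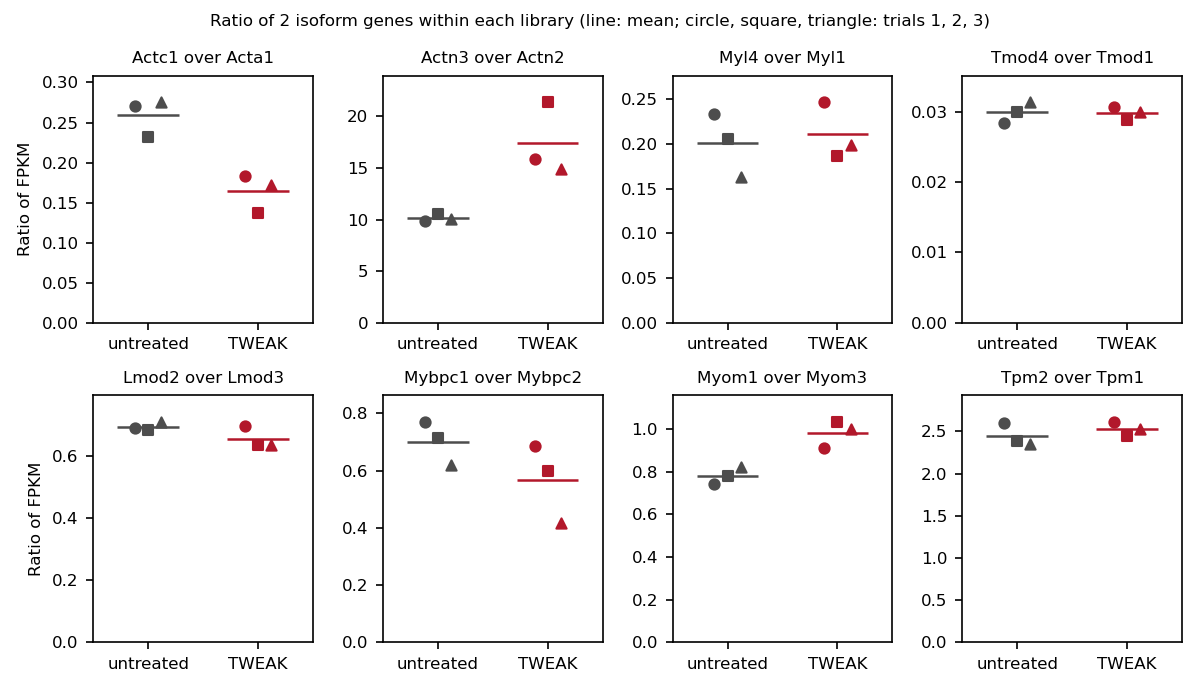
Ratio of FPKM of 2 related genes in each library for 8 pairs, with a line at the group mean and symbols for trials 1, 2 and 3; each axis starts at 0. Actc1 over Acta1, Actn3 over Actn2 and Myom1 over Myom3 do not overlap between groups, and the other 5 pairs do.

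The most abundant of the 44 genes were mostly among those that did not pass. With cut-offs chosen after the values were seen, 1 of 11 genes at 300 FPKM or more in untreated cells was called lower, Actc1, and 16 of 28 genes between 5 and 300 FPKM were. Among all tested genes, 4.58% were lower at 300 FPKM or more and 7.06% between 5 and 300. The 3 tested members below 5 FPKM, Myoz1, Myot and Tmod4, were not called. Of the 44 genes, 10 were among the 100 most abundant of untreated cells.

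TWEAK replicate 3 stood apart from the other libraries by gene length. Over all tested genes, the median deviation from a gene's mean over the 6 libraries, on the log2(FPKM + 1) scale, was 0.11 for exon lengths up to 1000 bases in TWEAK replicate 3 and fell to -0.20 for 8000 to 16000 bases and -0.27 for the 28 genes over 16000 bases. In each of the other 5 libraries it stayed between -0.05 and 0.10 in every length class. The untreated libraries were all below 0 in the classes up to 4000 bases and all above 0 in the longer ones. The share of tested genes called lower rose with length, from 2.93% up to 1000 bases to 8.79% for 4000 to 8000 and 17.9% over 16000. The median log2 fold change was 0.05 in the shortest class and -0.16 in the longest. Ttn has a recovered exon length of 107355 bases, Neb 23361 and Flnc 9038, and all 3 were lowest in TWEAK replicate 3. After each library's values were corrected by a curve against gene length, the log2 fold change of Ttn went from -0.69 to -0.24 (limma adjusted p = 0.0337) and that of Neb from -0.65 to -0.41 (0.0392). The correction called 18 of the 42 genes lower, and 6.45% of all tested genes. Myom1 and Obsl1 lost their calls with it (adjusted p = 0.106 and 0.0984), and Acta1 (0.029), Mb (0.0128) and Tmod4 (0.0382) gained one. The other 15 calls were kept. Only 28 tested genes were over 16000 bases, so few genes of such length bear on the curve at Ttn and Neb. This correction was chosen after seeing the data, and what part gene length has in the difference of Ttn and Neb was not tested further.

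**Figure D5:**
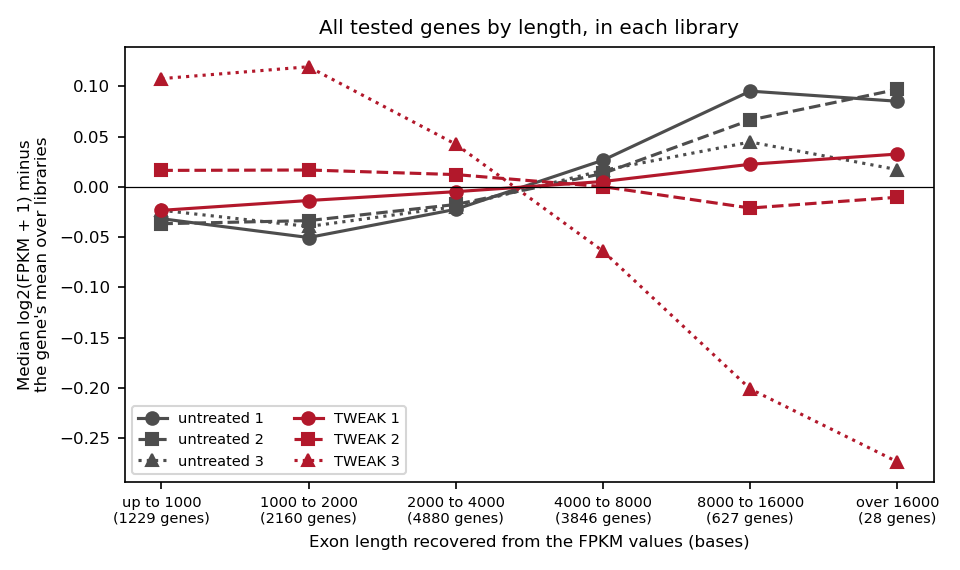
Median over all tested genes of log2(FPKM + 1) minus the gene's mean over the 6 libraries, in classes of exon length recovered from the FPKM values, 1 line a library. TWEAK replicate 3 goes from 0.11 in the shortest class to -0.27 in the longest. The other libraries stay between -0.05 and 0.10, with the untreated ones below 0 up to 4000 bases and above 0 in the longer classes.

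Other sarcomere genes were counted in 3 further lists, beside the 6.1% of all tested genes lower and 8.98% higher. All 8 tested myosin heavy chain genes, which encode the motor of the thick filament, were lower and 0 higher, with a median log2 fold change of -0.91. The slow chain Myh7 was at 57.5 ± 4.81 FPKM with TWEAK and 128 ± 11.1 FPKM untreated (limma adjusted p = 8.75e-05), Myh7b at 5.36 ± 1.23 FPKM with TWEAK and 14.7 ± 1.01 FPKM untreated (0.000394) and Myh6 at 7.77 ± 1.24 FPKM with TWEAK and 15.4 ± 1.26 FPKM untreated (0.000927). The embryonic chain Myh3, the most abundant, was at 615 ± 79.5 FPKM with TWEAK and 1028 ± 126 FPKM untreated (0.00615). Of the 8 troponin genes, which make the calcium switch of the thin filament, 0 were called in either direction, with 2 lower and 0 higher at an unadjusted p below 0.05, 0 by limma-voom, and a median log2 fold change of -0.16; the most abundant, Tnnc1, was at 4501 ± 328 FPKM with TWEAK and 4552 ± 279 FPKM untreated. In the list of titin cap, stretch sensor and giant kinase genes, 15 of 20 were lower and 2 higher. The telethonin gene Tcap was at 14.6 ± 4.42 FPKM with TWEAK and 42.4 ± 0.920 FPKM untreated (limma adjusted p = 0.000736), the muscle LIM protein Csrp3 at 15.2 ± 1.59 FPKM with TWEAK and 35.2 ± 3.76 FPKM untreated (0.000134), Nrap at 28.1 ± 2.96 FPKM with TWEAK and 59.5 ± 5.04 FPKM untreated (0.000144) and Ankrd1, the most abundant, at 379 ± 10.5 FPKM with TWEAK and 566 ± 36.8 FPKM untreated (0.00266). The 2 that were higher were the muscle ubiquitin ligase Trim63, 1.93-fold (limma adjusted p = 5.63e-05), and the skeletal myosin light chain kinase Mylk2, 2.72-fold (0.000115). Mylk2 was at 34.8, 48.4 and 44.7 FPKM with TWEAK and 14.8, 16.1 and 16.3 FPKM untreated.

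In the promoter windows, a CArG box was found in 4 of the 15 called genes with a promoter (26.7%: Actc1, Fhl1, Ldb3 and Myom1) and in 1 of the 21 genes tested and not called (4.76%: Acta1). Of all 27025 genes with a promoter, 1.81% had one, and of all tested genes called lower 3.58%. The MEF2 box was in 2 of 15 called genes (13.3%: Myom3 and Ttn) and 2 of 21 not called (9.52%: Klhl41 and Myoz2), against 3.7% of all. CAGCTG, an E-box that is also counted under CANNTG, was in 33.3% of the called genes, 57.1% of those not called and 18.3% of all. CANNTG was in 80.0%, 85.7% and 75%, CATTCC in 26.7%, 33.3% and 16.6%, and TATAAA in 26.7%, 23.8% and 15.7%, in the same order. A motif for NF-kB, a factor that TWEAK can activate, was in 13.3% of the called genes (Actn2 and Myom1), 19.0% of those not called and 5.14% of all. These counts describe letters within 300 bases and no binding, and the difference between called and other members was not tested.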

How the data were processed

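RNA from 6 libraries of C2C12 myotubes, 3 TWEAK and 3 untreated, was measured by poly(A) sequencing, per the labels' protocols. The submitters' processing notes name build GRCm39 and, as the authors' tools, STAR 2.6.0c, Trim Galore 0.5.0, DESeq2 1.22.2 and HTSeq 0.6.1p2. How they were set, the annotation release and strand handling were not given in the sources used here, so reads of overlapping genes cannot be assigned by strand. The deposited table lists each library's FPKM, per the file headers. It also holds the authors' mean signal (normalized counts), log2 fold change, score (test statistic) and p-value per gene. For 2337 genes listed at 0 in each of the 6 libraries that mean exceeds 0, so further libraries entered the authors' fit; they were not analysed here. Per-sample columns left without a sample numbered 0.

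Whole reads and exon lengths were recovered from the FPKM: all of the 126386 values above 0 (100% of them) came out whole within 1e-05 reads. The length was searched for as the smallest that made a gene's values whole, so that share is partly set by the search. Of the genes above 0 in all 6 libraries that GENCODE M21 lists, 26.8% had a recovered length matching its exon length. A common factor had to be chosen for 190 tested genes and for 1 of the 44, Myoz3, which is an assumption. The reads give depth (29980372 to 40919753 a library), and limma-voom on them called 904 genes lower (7.08%) and 1217 higher.

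The test was limma-trend (limma 3.58.1, R 4.3.3) on log2(FPKM + 1) for 12770 genes with a mean of at least 0.5 FPKM, with group as the only term, two-sided, Benjamini-Hochberg over all tested genes at 0.05. Log2 fold changes are TWEAK minus untreated and understate changes of low genes; folds are ratios of mean FPKM, and ± is the SD of 3 libraries unless marked SE. The scripts were tested on simulated data. Python 3.11.15, pandas 2.3.3, numpy 2.4.6, scipy 1.17.1 and matplotlib 3.10.9 were also used. All 44 members are named, and from each other list up to 3 called genes a direction by adjusted p and the most abundant gene; others were chosen after their values were seen. The members and lists were chosen with earlier results of these data known. Trial numbers were taken to pair libraries: over all genes, deviations from group means correlated at 0.473, 0.218 and 0.434 between same-numbered libraries, each over 0.1. Alternatives were pseudocount 0.1, other filters, rescaling, limma-voom, trial as a block, each library left out, and a length correction.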

Additional observations from a re-analysis of the deposited data

How the results depend on the processing

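No pseudocount, rescaling, filter at 1 FPKM or limma-voom fit reversed a called member, and none called a member higher. With no expression filter, 302 genes were lower and 499 higher, with 8 members, 4 myosin heavy chains and 9 genes of the titin cap list lower (the 9 members that lost their call had adjusted p from 0.0637 to 0.174); more genes at or near 0 were tested. With the replicate block, 1598 genes were lower and 1965 higher, 6 paralogs were lower and 2 higher, and 7 muscle transcription factors were lower; it changed the calls of the 8 members named in the report and of no other member. With the replicate block and length correction together, 1713 genes were lower and 1878 higher, and 30 members, 5 paralogs, 6 muscle transcription factors and 2 troponins were lower, with 3 paralogs higher; Myom1 lost its call there (adjusted p = 0.0595). Troponins called lower numbered 1 with the same total FPKM, 1 with the same upper quartile and 2 with the length correction alone. Leaving out each library in turn, all genes lower ranged from 343 to 835 and higher from 501 to 1266 (lowest without TWEAK replicate 2 for both; without untreated replicates 1 and 2, 459 and 399 lower and 640 and 705 higher, and without untreated replicate 3, 741 higher), members lower from 9 to 20 (9 without TWEAK replicate 2 or untreated replicate 1), troponins lower from 0 to 2, paralogs lower from 2 to 5 (5 without untreated replicate 3) and higher from 0 to 1 (1 without TWEAK replicate 3). Log2 fold changes near 0 changed sign without a call: over the fits without 1 library, -0.0305 to 0.02762 for Actn3, -0.0335 to 0.04961 for Myom2, -0.0973 to 0.2109 for Myot, -0.108 to 0.02469 for Tpm1, -0.0565 to 0.04997 for Tpm2 and -0.0377 to 0.01233 for Tpm3, and, for the log2 ratio differences, -0.0669 to 0.191 for Myl4 to Myl1 and -0.0413 to 0.0306 for Tmod4 to Tmod1. Other sign changes were Tpm2 at -0.00485 with the same total, Tpm2 at -0.0191 and Myom2 at -0.0101 with the same upper quartile, and Tpm2 at -0.0427 and Myot at -0.0145 with the length correction, with or without the replicate block. Apart from the filter, the cause of these changes was not tested. Depth limits the low members: the least covered tested member, Tmod4, had a mean of 67 reads a library.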

Other observations

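Relatives of the sarcomere genes that non-muscle and smooth muscle cells use were 22 in all: 2 were lower and 0 higher, beside 6.1% and 8.98% of all tested genes, with a median log2 fold change of -0.01. The 2 were the light chain gene Myl9, at 18.3 ± 1.26 FPKM with TWEAK and 25.2 ± 2.32 FPKM untreated (limma adjusted p = 0.00893), and the PDZ-LIM gene Pdlim2, at 44.5 ± 1.73 FPKM with TWEAK and 57.9 ± 3.92 FPKM untreated (0.00875). The most abundant, the smooth muscle actin Acta2, was at 1254, 1401 and 1367 FPKM with TWEAK and 1260.2, 1496 and 1301 FPKM untreated, and the groups overlapped. With trial as a block 6 were lower and 2 higher, beside 12.5% and 15.4% of all tested genes. The difference between this list and the sarcomere genes was not tested.

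Of 14 tested muscle transcription factor genes, 3 were lower and 0 higher, beside 6.1% and 8.98% of all tested genes, and 7 were lower when trial was a block, beside 12.5%. Mef2c, whose protein binds the MEF2 box, was at 22.1, 17.2 and 21.1 FPKM with TWEAK and 37.3, 29.9 and 38.8 FPKM untreated, a 1.75-fold lower mean (limma adjusted p = 0.00336). Myf5 was at 3.10 ± 0.295 FPKM with TWEAK and 4.66 ± 0.160 FPKM untreated (limma adjusted p = 0.00622) and Myod1 at 72.9 ± 3.30 FPKM with TWEAK and 90.7 ± 3.27 FPKM untreated (0.0142). The Myod1 call was lost without TWEAK replicate 2 (adjusted p = 0.0801), untreated replicate 1 (0.0597) or untreated replicate 2 (0.0579). Myog, the most abundant, was at 901, 803 and 774.2 FPKM with TWEAK and 773.6, 746 and 598 FPKM untreated; all TWEAK libraries were above all untreated ones, and the adjusted p was 0.221. Srf, whose protein binds the CArG box, was at 14.0 ± 0.357 FPKM with TWEAK and 15.7 ± 0.959 FPKM untreated (limma adjusted p = 0.167).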
